A study of Mus musculus with 2 samples.

Results

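Collagen genes were taken here as all mouse genes whose symbol is Col, a number, a, and a number, with at least 1 protein-coding transcript. The rule uses names and annotation only, and it found 44 genes among 55536 genes of the tables, of which 22028 have a protein-coding annotation. Total RNA of the heart was sequenced from 2 adult female B6CASTF1/J mice, first-generation offspring of a cross between the strains C57BL/6J and CAST/EiJ, aged 8 to 10 months. Both animals were untreated and form 1 group, with replicate 1 being animal 1 and replicate 2 being animal 3, so the question is which collagens the adult hybrid heart transcribes and how far 2 animals differ. Levels are given as TPM, in which reads are divided by transcript length and scaled to the same total in each library. Each value is given for both animals, and ± denotes the SD over 2 animals.

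Collagens are secreted or membrane proteins of the extracellular matrix whose chains wind into a triple helix. The helix requires glycine at regular spacing, in repeats written Gly-X-Y, and every trimer is assembled from chains encoded by separate genes or from copies of a single chain. Fibrillar collagens form the load-bearing fibrils of the cardiac interstitium, made mainly by fibroblasts. Type IV collagens form the sheet-like network of basement membranes, which surround each cardiomyocyte and underlie the endothelium, and the remaining classes link, coat or anchor these structures.

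The classes differ in their coding sequence in a way that can be read from the bases. A Gly-X-Y unit was taken as a GGN codon, which encodes glycine, followed by 2 other codons, in frame, and a run as at least 3 consecutive units. Coding exons of 54 bases, which hold exactly 6 units, are shown first for the 3 most abundant chains of the fibrillar class. For each chain this is the first such exon that opens with a GGN codon and lies within the longest run. Stretches chosen because they hold an interruption of the repeat follow for Col4a1, Col4a2 and Col15a1. Each is the interruption with 3 units on either side, not a whole exon. The exon number names the exon that holds the stretch. Capitals mark the GGN codons of the repeat, each sequence is written 5′ to 3′ on the strand of its gene, positions are on mm10, and the sequences are those of the GENCODE M21 transcripts.
Col1a1, exon 8 of Col1a1-201, chr11:94939904-94939957, plus strand: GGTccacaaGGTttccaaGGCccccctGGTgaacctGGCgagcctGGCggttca
Col1a2, exon 8 of Col1a2-201, chr6:4515481-4515534, plus strand: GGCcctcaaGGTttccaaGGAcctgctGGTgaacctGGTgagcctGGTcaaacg
Col3a1, exon 6 of Col3a1-201, chr1:45325360-45325413, plus strand: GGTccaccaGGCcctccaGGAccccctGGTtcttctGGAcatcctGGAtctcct
Col4a1, exon 21 of Col4a1-201, chr8:11235141-11235200, minus strand: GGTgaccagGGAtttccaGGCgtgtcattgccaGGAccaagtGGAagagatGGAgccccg
Col4a2, exon 20 of Col4a2-201, chr8:11415964-11416029, plus strand: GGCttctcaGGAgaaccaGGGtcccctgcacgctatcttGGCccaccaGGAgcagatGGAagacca
Col15a1, exon 13 of Col15a1-202, chr4:47270288-47270350, plus strand: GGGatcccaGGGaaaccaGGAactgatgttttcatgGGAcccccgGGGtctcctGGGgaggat

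In the fibrillar exons a GGN codon led every triplet from end to end, as their choice from within the longest run required. In the other stretches, chosen to hold a break, the spacing was broken by 2 extra codons in Col4a1, by 4 in Col4a2 and by 3 in Col15a1. The printed sequences are thus examples, and the classes are compared by the runs over whole coding sequences. The longest unbroken run was 338 units in Col1a1, 339 in Col1a2 and 344 in Col3a1. It was 40 units in Col4a1 and 66 in Col4a2, whose repeats were divided into 23 and 24 runs, and 30 units in both Col15a1 and Col18a1. In type VI the longest run lay between 37 and 87 units.

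All 44 collagen genes held a run of at least 20 units, a length reached by 64 of 21562 protein-coding genes with a readable coding sequence. At 50 units or more the count was 25 collagens among 28 genes, and at 100 or more, 15 among 15. The 9 genes with at least 300 units were all fibrillar collagens, while the other fibrillar members, Col24a1 and Col27a1, reached 216 and 217 units. Exon lengths followed the class as well. Of inner coding exons, 48.6% were 54 bases long in the fibrillar genes (305 of 627), against 4.23% in the type IV genes (12 of 284) and 0.737% over all protein-coding genes. These are features of the reference and say nothing on the level of a gene in the heart.

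**Figure D1:**
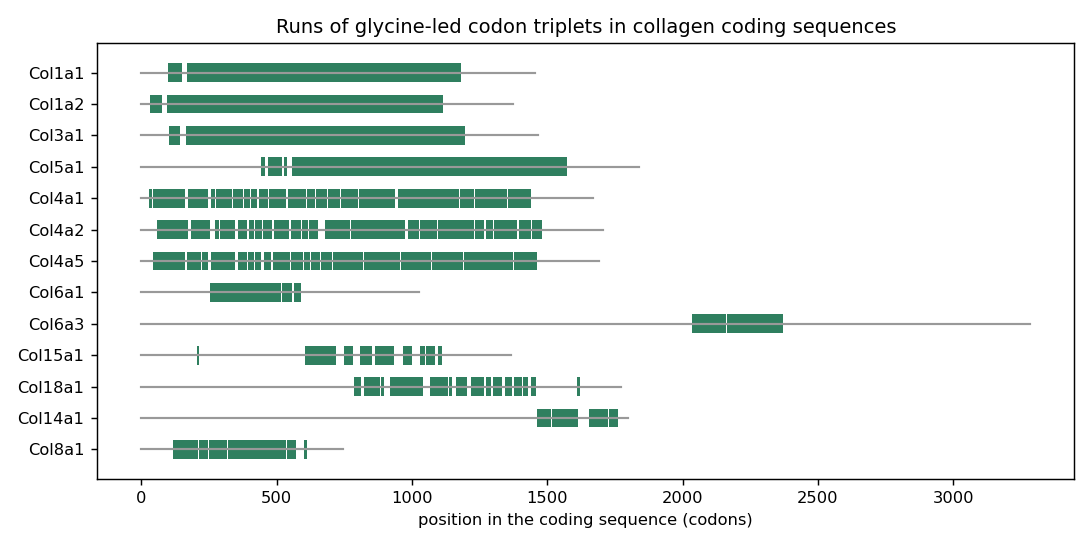
Runs of Gly-X-Y units along the coding sequences of 13 collagen genes, with the position in codons on the x axis, a grey line for the coding sequence and green blocks for runs of at least 3 units. Col1a1, Col1a2, Col3a1 and Col5a1 show 1 long block of 338 to 344 units, the type IV chains show 23 or 24 blocks, and Col6a3 shows a short repeat within a coding sequence of 3284 codons.

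Of the 44 collagen genes, 17 were at 1 TPM or more in both hearts. Over all protein-coding genes this share was 48.7%. A further 25 collagens were below 1 TPM in both hearts, and 2 reached it in 1 animal only. These were Col5a3, at 2.05 TPM in replicate 1 and 0.96 TPM in replicate 2, and Col4a4, at 0.91 and 1.06 TPM. The nearest member on the inner side of the threshold was Col6a6, at 1.27 and 1.02 TPM. At 10 TPM or more in both hearts there were 7 members.

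All collagens summed to 254 TPM in replicate 1 and 184 TPM in replicate 2, a mean of 219 ± 49.7 TPM. This was 0.0254% and 0.0184% of all TPM, and 0.0671% and 0.0552% of the TPM of nuclear protein-coding genes. The sum rested on 42720.8 expected counts in replicate 1 and 31528.5 in replicate 2, of library totals of 42223411 and 40553237. A few genes carried most of it. The highest 2 members held 39.6% ± 0.99 of collagen TPM, the highest 4 held 57.3% ± 0.84, and the highest 9 held 85.2% ± 1.3. The 17 expressed members had a median of 10.3 TPM in replicate 1 and 7.24 TPM in replicate 2, against 8.48 and 7.42 TPM for expressed protein-coding genes as a whole.

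**Figure D2:**
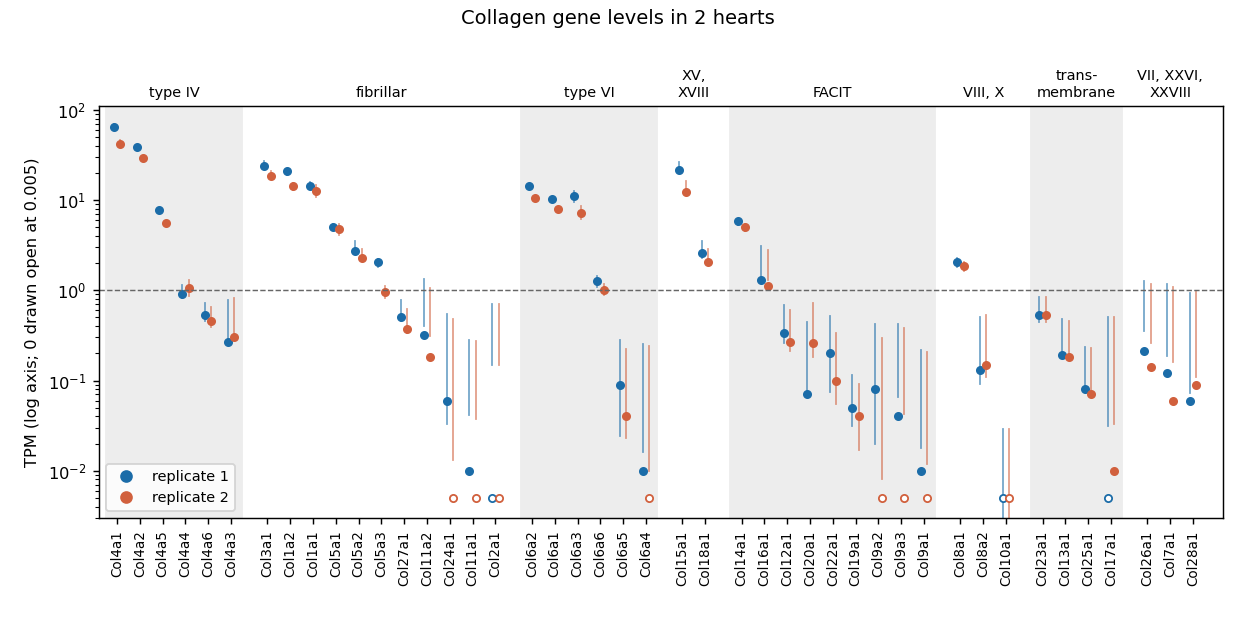
Level of each of the 44 collagen genes in TPM on a log axis, grouped by class, with blue points for replicate 1, orange points for replicate 2, open points for a value of 0 and the dashed line at 1 TPM. Vertical lines are the deposited credibility intervals, which belong to the posterior mean and so can lie above the plotted TPM of a low gene; Col4a1 is highest at 63.93 and 41.91 TPM, and most members of the smaller classes lie below the line.

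By class, type IV held 43.5% ± 0.79 of collagen TPM and the 11 fibrillar genes 28.3% ± 1.3. Type VI held 14.7% ± 0.06, types XV and XVIII together 8.63% ± 1.2, and the 9 fibril-associated collagens with interrupted helices (FACITs) 3.41% ± 0.42. Types VIII and X held 0.866% in replicate 1 and 1.09% in replicate 2. The 4 transmembrane collagens held 0.315% and 0.430%, and types VII, XXVI and XXVIII together 0.154% and 0.158%. The order of the classes was the same in both animals, and neighbouring classes down to the FACITs were farther apart than the SD between animals. The type IV share was 47.9% ± 0.97 in the FASTQ-derived table, in which transcripts were quantified a second way, and 43.6% by full-length coding transcripts, defined with the transcripts of Col4a1.

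**Figure D3:**
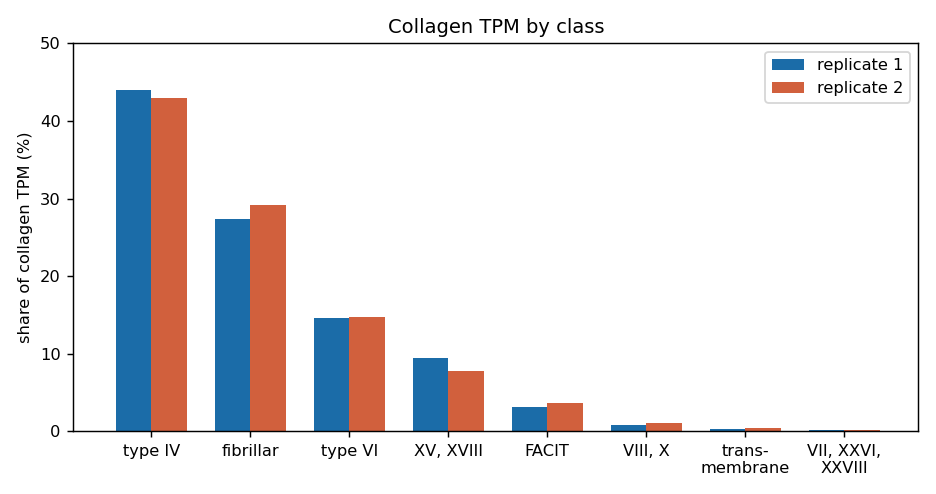
Share of the summed collagen TPM held by each class, in percent from 0, with a bar for each animal. Type IV is highest at 44.0% and 42.9%, followed by the fibrillar genes at 27.4% and 29.2% and type VI at 14.6% and 14.7%.

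Among the type IV chains, Col4a1 and Col4a2, which assemble into the common α1α1α2 network of basement membranes, were the most abundant collagens in both hearts. Col4a1 (ENSMUSG00000031502.11, chr8:11198423-11312826, minus strand) was at 63.93 TPM in replicate 1 and 41.91 TPM in replicate 2. Col4a2 (ENSMUSG00000031503.13, chr8:11312805-11449287, plus strand) was at 38.41 and 29.54 TPM. Only 3.85% of protein-coding genes lay above Col4a1 in replicate 1 and 5.07% in replicate 2. The genes lie head to head, and their annotated first exons overlap by 22 bases, at chr8:11312805-11312826. These bases, which lie at both start sites, read on the plus strand of the RefSeq promoter table of GRCm38.p6, whose coordinates are those of mm10:
Col4a1 and Col4a2, shared first bases: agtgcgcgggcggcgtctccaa

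The other type IV chains were lower and unequal. Col4a5, an X-linked chain found with Col4a3 and Col4a4 in the glomerular basement membrane and with Col4a6 in smooth muscle basement membranes, was at 7.74 TPM in replicate 1 and 5.54 TPM in replicate 2. Its neighbour Col4a6, transcribed from the opposite strand 1308 bases away, was at 0.53 and 0.46 TPM, so that Col4a5 was 13.0-fold higher on average (log2 3.70 ± 0.20). Col4a3 and Col4a4, the other head-to-head pair, lie 71 bases apart on chromosome 1. Col4a3 was at 0.27 and 0.30 TPM, lower than Col4a4 in both animals by a log2 difference of -1.75 ± 0.05. The 3 head-to-head pairs therefore differed in level and in the ratio of their partners.

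Among fibrillar collagens, Col3a1, whose chain forms the type III homotrimer of pliable tissues, led with 23.73 TPM in replicate 1 and 18.45 TPM in replicate 2 (ENSMUSG00000026043.18, chr1:45311538-45349706, plus strand). The type I chains followed. Col1a2 (ENSMUSG00000029661.16, chr6:4504814-4541544, plus strand) was at 20.82 and 14.18 TPM. Col1a1 (ENSMUSG00000001506.10, chr11:94936224-94953042, plus strand) was at 14.42 and 12.47 TPM, although the type I trimer holds more α1 than α2 chains. Col3a1 was above Col1a1 by a log2 difference of 0.64 ± 0.11, while Col1a1 and Col1a2 differed by -0.36 ± 0.24, a difference that depends on short transcripts as given with the transcripts.

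Type V chains, which sit within type I fibrils and set their diameter, were lower. Col5a1 was at 4.98 TPM in replicate 1 and 4.77 TPM in replicate 2, and Col5a2 at 2.74 and 2.30 TPM. Their log2 ratio was 0.95 ± 0.13. Col5a3, a less common type V chain, was at 2.05 and 0.96 TPM, and its ratio to Col5a1 varied most between animals among the pairs whose genes both had at least 20 counts (log2 -1.28 in replicate 1 and -2.30 in replicate 2). The remaining fibrillar genes were below 1 TPM in both hearts. Col27a1 was at 0.50 and 0.37 TPM and Col11a2 at 0.32 and 0.18 TPM. Col24a1 and Col11a1 had at most 3 counts in either library. Col2a1, the main collagen of cartilage, had 0 counts in both. A count of 0 is compatible with as many as 3 counts, or 0.0711 of 1000000 counts in replicate 1 and 0.0740 in replicate 2, a limit that covers counting error only.

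Type VI chains build the beaded microfilaments that connect basement membranes with interstitial fibrils, and an α1, an α2 and an α3 chain make the usual trimer. Col6a2 was at 14.43 TPM in replicate 1 and 10.66 TPM in replicate 2, Col6a1 at 10.34 and 8.03 TPM, and Col6a3 at 10.96 and 7.24 TPM. Col6a1 was below Col6a2 in both animals (log2 -0.44 ± 0.05), while Col6a3 and Col6a1 did not differ beyond the spread between animals (log2 -0.03 ± 0.16). Col6a6, an alternative to the α3 chain, was 0.129-fold the level of Col6a3 by genes and 0.216-fold by full-length transcripts. Its neighbours on chromosome 9, Col6a5 and Col6a4, were at 0.09 and 0.04 TPM and at 0.01 and 0.00 TPM.

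Col15a1, the chain of a collagen of the basement membrane zone of muscle and capillaries, was the fifth member by mean level and the third outside type IV. It was at 21.51 TPM in replicate 1 and 12.21 TPM in replicate 2 (ENSMUSG00000028339.17, chr4:47208161-47313167, plus strand). Col18a1, its relative and the source of the endostatin fragment, was at 2.58 and 2.06 TPM. Col15a1 was above Col18a1 in both hearts, by a log2 difference of 2.81 ± 0.35.

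Of the FACITs, Col14a1, which binds the surface of fibrils, was at 5.81 TPM in replicate 1 and 5.03 TPM in replicate 2, and Col16a1 at 1.31 and 1.12 TPM. Col12a1, the closest relative of Col14a1, was at 0.34 and 0.27 TPM, or 0.0578-fold the level of Col14a1. Short transcripts held 73.5% and 69.2% of Col12a1, and by full-length transcripts the ratio was 0.033-fold. The other FACITs, Col9a1, Col9a2, Col9a3, Col19a1, Col20a1 and Col22a1, lay between 0.00 and 0.26 TPM. Among the short-chain collagens, Col8a1, a component of vessel walls, was at 2.07 and 1.86 TPM, and Col8a2 was at 0.13 and 0.15 TPM. Col10a1, the collagen of hypertrophic cartilage, had 0 counts in both libraries.

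No transmembrane collagen reached 1 TPM. Col23a1 was at 0.53 TPM in both hearts, Col13a1 at 0.19 and 0.18 TPM and Col25a1 at 0.08 and 0.07 TPM. Col17a1, a component of the hemidesmosomes of skin, had 0 counts in replicate 1 and 2 in replicate 2. Col7a1, which forms the anchoring fibrils of skin, was at 0.12 and 0.06 TPM, Col26a1 at 0.21 and 0.14 TPM and Col28a1 at 0.06 and 0.09 TPM. In all, 13 members had fewer than 20 counts over both libraries, so their levels and ratios are not resolved. Markers of cell types that use these genes were also low: of 7 chondrocyte markers, 2 (Comp and Cnmd) reached 1 TPM, Acan was at 0.02 TPM in both hearts and Matn1 and Matn3 had 0 counts. Of 5 keratinocyte markers none reached 1 TPM, with Krt5 and Dsg3 at 0 counts.

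The level of a gene is the sum of its transcripts, and short annotated transcripts changed several of these comparisons. For each gene the full-length coding transcript was taken as the most abundant protein-coding transcript of at least 50% of the length of the longest. For Col4a1 this was Col4a1-201, of 6615 bases, at 42.11 TPM in replicate 1 and 29.51 TPM in replicate 2. Transcripts shorter than that limit held 34.1% and 29.6% of the level of Col4a1, most of it on Col4a1-203, of 545 bases, at 18.5 and 9.13 TPM. For Col4a2 the full-length transcript was at 38.41 and 28.78 TPM and short transcripts held at most 2.57%.

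Between full-length transcripts, Col4a1 and Col4a2 were close to equal, with a log2 ratio of 0.08 ± 0.07, against 0.62 ± 0.16 between the genes. The FASTQ-derived table gave 1.18 ± 0.15 between the genes. It placed 23.6 and 16.5 TPM on a processed transcript of Col4a1 of 416 bases, which was at 0 TPM in the alignment-derived table. On the full-length transcript of Col4a1 both tables were closer, at 38.8 and 27.4 TPM in the FASTQ-derived one. The higher level of Col4a1 than of Col4a2 thus lay on short transcripts, whose levels differed with the quantification.

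Col1a2 and Col15a1 also had levels on short transcripts. Short transcripts held 28.9% and 15.7% of Col1a2, mainly Col1a2-205, a coding transcript of 850 bases. The full-length Col1a2-201 was at 14.69 TPM in replicate 1 and 11.89 TPM in replicate 2, and the full-length Col1a1-201 at 14.42 and 10.31 TPM. Their log2 ratio was -0.12 ± 0.13, smaller than the SD between animals. Short transcripts of Col15a1 held 29.7% and 14.9%, and its full-length transcript was at 15.08 and 10.16 TPM. In the FASTQ-derived table the full-length transcript held 84.1% and 97.2% of Col15a1, and Col15a1-203, which was at 4.26 and 1.82 TPM in the alignment-derived table, was at 0 TPM.

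Col6a3 had the highest share on short transcripts among the 10 most abundant collagens, at 41.2% of its level in replicate 1 and 43.9% in replicate 2. The retained-intron transcript Col6a3-206, of 646 bases, held 27.0% ± 5.5 and the coding Col6a3-207, of 476 bases, 15.5% ± 3.6. On the full-length Col6a3-202 the gene was at 6.12 and 3.72 TPM. By full-length transcripts Col6a3 was below Col6a1 by a log2 difference of -0.93 ± 0.26, where the genes had not differed. Col6a1 and Col6a2 had at most 0.676% on short transcripts.

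**Figure D4:**
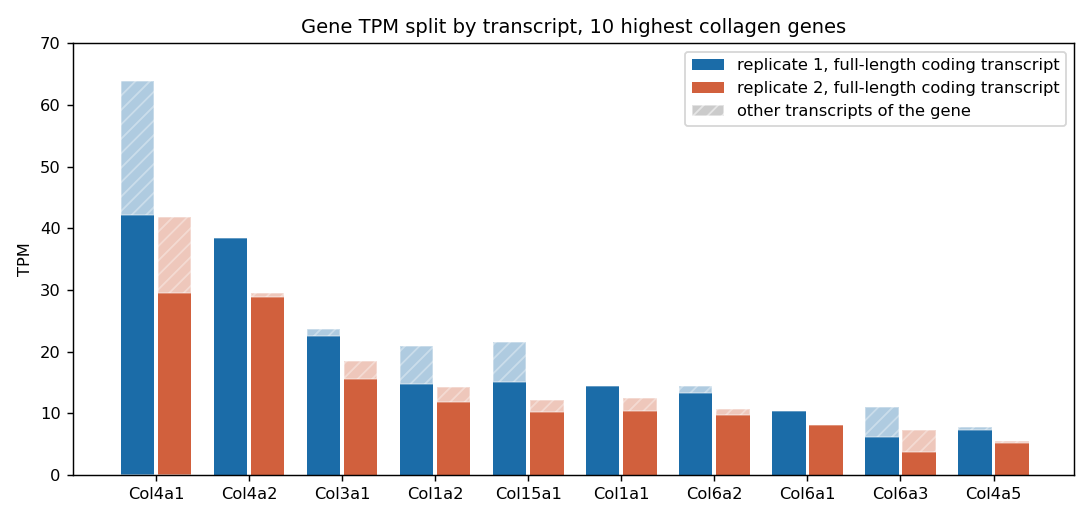
Level in TPM, from 0, of the 10 highest collagen genes, with 1 stacked bar for each animal: the solid part is the full-length coding transcript and the hatched part all other transcripts of the gene. The solid parts of Col4a1 and Col4a2 are close (42.11 and 38.41 TPM in replicate 1), and the hatched part is large in Col4a1, Col1a2, Col15a1 and Col6a3.

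For Col3a1 the tables differed. In the alignment-derived table its short transcripts held 4.76% in replicate 1 and 15.6% in replicate 2. In the FASTQ-derived table the coding Col3a1-205, of 737 bases, alone held 21.1% and 33.5%, and the full-length Col3a1-201 held 65.6% ± 3.6. Short transcripts of Col5a2 held 10.6% and 11.3% in the alignment-derived table. Col14a1 was divided between coding transcripts, with 2.55 TPM in replicate 1 and 3.22 TPM in replicate 2 on Col14a1-201. Col14a1-203, of 5679 bases, held 30.5% and 15.7% of its level, and a short transcript 25.6% and 20.1%. The level of Col16a1 did not lie mainly on its full-length coding transcript, which was at 0.19 and 0.09 TPM. Its leading transcript differed between animals and tables: Col16a1-209, annotated as a target of nonsense-mediated decay, held 29.0% and 32.1% in the alignment-derived table and 0.181% and 28.3% in the FASTQ-derived one. For expressed collagens, the median share of TPM on coding transcripts was 99.3% in replicate 1 and 99.1% in replicate 2, against 94.9% and 95.3% over all expressed protein-coding genes. The annotated miRNA gene Gm47302 lies on the same strand within Col3a1 and shares 141 of its 9816 exon bases. It was listed at 34.23 and 23.37 TPM, and reads in that stretch cannot be told apart from those of Col3a1.

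Gene levels were also compared between the tables. Of 18 members compared, 0 were 2-fold or more apart between the FASTQ-derived and alignment-derived gene TPM in both animals, where 3.34% of all genes compared were. The log2 difference lay between -0.23 (Col15a1) and 0.49 (Col4a1). Col3a1 was higher in the FASTQ-derived table by 0.34 and 0.30, and Col18a1 by 0.43 in replicate 1 but not in replicate 2 (-0.05).

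Between the animals, collagens were lower in replicate 2. Ratios were taken as log2 of TPM + 0.1, replicate 2 over replicate 1, centred on the median of 11876 compared genes, which was -0.18 before centring. These genes had a mean of at least 1 TPM and at least 20 counts over both libraries. The TPM of all 18 collagens that met this limit was lower in replicate 2, and after centring 16 were lower and 2 higher. Their median was -0.18, against 0.00 for all compared genes, whose 10th and 90th percentiles were -0.30 and 0.34. No test was possible, because the smallest two-sided p of an exact permutation of signs is 0.5 for 2 animals. The ratios describe these 2 libraries only, and in bulk tissue fewer cells of a type and less RNA per cell cannot be told apart.

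By size the differences were small. No collagen was 2-fold or more apart between the animals, against 1.41% of all compared genes. At 1.5-fold there were 2 of 18, Col5a3 (-0.84) and Col15a1 (-0.63), against 5.78%. Col15a1 did not reach 1.5-fold by its full-length transcript (-0.38) or by counts (-0.41), while Col5a3 did (-0.78 and -0.88). Lower by 1.2-fold or more in replicate 2 were 6 of 18, against 12.2% of all compared genes, and higher by as much were 0, against 14.2%. Besides Col5a3 and Col15a1, the 6 were Col4a1 (-0.43), Col6a3 (-0.41), Col1a2 (-0.37) and Col4a5 (-0.29). Of the 6, Col1a2 was within 1.2-fold by its full-length transcript (-0.12) and by counts (-0.16). By gene TPM the remaining 12 lay within 1.2-fold, with Col5a1 (0.12) and Col8a1 (0.04) as the 2 higher in replicate 2. By full-length transcripts 9 of 18 were lower by 1.2-fold or more, with Col3a1 (-0.35), Col1a1 (-0.30), Col6a2 (-0.27) and Col16a1 (-0.43) added. Col14a1 was higher by as much (0.51). The share of all genes was not computed by full-length transcripts. By counts, Col3a1 (-0.32) and Col1a1 (-0.28) were also lower by 1.2-fold or more. The direction of Col5a1 turned by its full-length transcript (-0.25) and by counts (-0.21); the short Col5a1-202 was at 0 TPM in replicate 1 and 1.13 TPM in replicate 2. The deposited credibility intervals did not overlap in 10 of 18 members, all lower in replicate 2, against 28.0% of compared genes in either direction. Direction was not counted for the compared genes. The intervals are of uncentred TPM, so they include the shift of -0.18 between the libraries that centring removes. Col3a1, Col4a2, Col6a1 and Col6a2, within 1.2-fold by centred ratio, were among the 10.

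By class, the median centred ratio was -0.29 over the 3 compared type IV chains and -0.38 for types XV and XVIII. It was -0.21 over the 4 type VI chains, -0.12 over the 6 fibrillar chains and -0.02 over the 2 FACITs. With 1 to 6 genes a class and 2 animals, no order among the classes was tested. By full-length transcripts, 16 of 18 members were again lower in replicate 2, with a median of -0.26 and a range from -0.78 (Col5a3) to 0.51 (Col14a1). At the level of the gene the ratio of Col14a1 was -0.02. Another long coding transcript of the gene, Col14a1-203, was at 1.77 TPM in replicate 1 and 0.79 TPM in replicate 2. The value of 0.51 thus depends on how reads were divided between these transcripts. Lower by TPM, by counts and in the FASTQ-derived table alike were 12 members.

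Cell type markers varied beside this. All 6 cardiomyocyte markers were expressed, among them Myh6 at 8814.12 and 7761.02 TPM, as the heart label requires. The median centred ratio of these 6 was 0.03. For 7 fibroblast markers the median was -0.04, with summed levels of 415 and 361 TPM and 5 of 7 lower. For 7 endothelial markers it was -0.20, with summed levels of 415 and 350 TPM and 6 of 7 lower; Kdr (-0.47), Egfl7 (-0.38) and Pecam1 (-0.26) were lower and Fabp4 (0.12) was higher. Smooth muscle and pericyte markers had a median of 0.02 and macrophage markers 0.05. The 6 epicardial and mesothelial markers went the other way, at 0.50, with summed levels of 14.6 and 18.7 TPM. Of 6 Schwann cell markers, 1 was expressed, and the 2 compared had a median of -0.35. The part of these markers in the lower collagen levels was not tested.

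**Figure D5:**
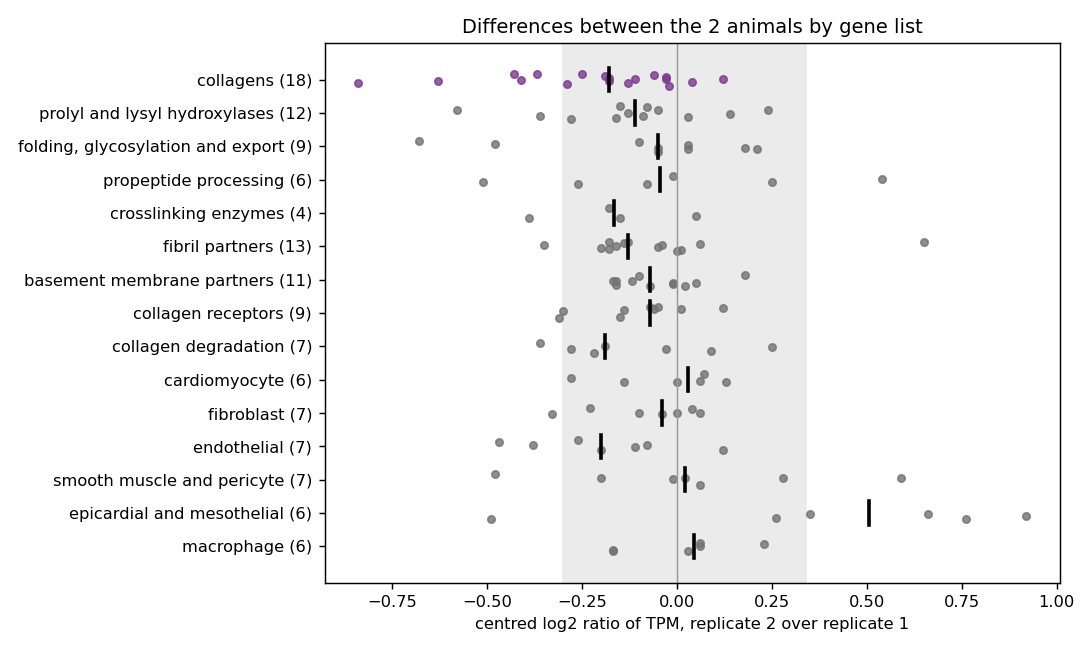
Centred log2 ratio of TPM, replicate 2 over replicate 1, for each compared gene of the collagens, the pathway lists and the cell type markers, with the number of genes compared in brackets, a black bar at each median and the grey band from the 10th to the 90th percentile of all compared genes (-0.30 to 0.34). The collagens have a median of -0.18 and the endothelial markers of -0.20, and the epicardial and mesothelial markers lie highest with a median of 0.50.

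The machinery that modifies collagen chains in the endoplasmic reticulum was expressed nearly in full. Of 13 genes for prolyl and lysyl hydroxylation, 11 were at 1 TPM or more in both hearts. Over all protein-coding genes this share was 48.7%. The lists are short, so in this and the following lists a count near that share says little about the list. P4hb, the shared β subunit of prolyl 4-hydroxylase, was at 94.1 TPM in replicate 1 and 77.87 TPM in replicate 2. Ppib, a prolyl isomerase, was at 38.32 and 32.51 TPM, and Plod1, a lysyl hydroxylase, at 24.0 and 18.97 TPM. Of the catalytic prolyl 4-hydroxylase subunits, P4ha2 was at 23.39 and 16.93 TPM (centred log2 ratio -0.28, and -0.07 in the FASTQ-derived table). P4ha1 was at 20.02 and 11.74 TPM (-0.58 in both tables), and P4ha3 was below 1 TPM, at 0.06 and 0.09 TPM. In this list 9 of 12 compared genes were lower in replicate 2, with a median of -0.11. Centring on the median divides all compared genes evenly into lower and higher. Counts of lower genes in this and the following lists are read against that even division, and none was tested.

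Of 10 genes for folding, glycosylation and export, 9 were expressed. Hspa5, a general chaperone of the endoplasmic reticulum, was at 217.04 TPM in replicate 1 and 195.63 TPM in replicate 2. Serpinh1 encodes HSP47, the chaperone dedicated to collagen, and was at 98.36 and 54.11 TPM. Mia3, which loads procollagen into transport carriers, was at 46.18 and 39.22 TPM. By the alignment-derived table Serpinh1 had the lowest ratio of any gene in the pathway lists that was compared (-0.68). In the FASTQ-derived table Adgrg1, of the receptor list, was lower (-0.78) than Serpinh1 (-0.64). The list for folding, glycosylation and export as a whole had a median of -0.05, with 5 of 9 lower. Creb3l1, a transcription factor of collagen secretion, was at 0.93 and 0.88 TPM.

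Of 9 genes for cleavage of propeptides, 6 were expressed, with a median ratio of -0.05 and 4 of 6 lower. Furin was at 37.16 TPM in replicate 1 and 32.46 TPM in replicate 2, and the enhancers of C-proteinase Pcolce and Pcolce2 were at 15.43 and 12.85 TPM and at 10.54 and 11.08 TPM. Tll1, Tll2 and Adamts14 were below 1 TPM. Of 7 crosslinking enzymes, 4 were expressed, with a median ratio of -0.17 and 3 of 4 lower. Tgm2, a transglutaminase, was at 84.27 and 76.95 TPM, Pxdn, which crosslinks type IV collagen, at 11.17 and 8.87 TPM, and Loxl1 at 5.51 and 4.25 TPM. Lox, the founding lysyl oxidase, was at 0.48 and 0.37 TPM, and Loxl3 and Loxl4 were also below 1 TPM.

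All 13 partners of collagen fibrils and all 11 partners of basement membranes were expressed. Decorin (Dcn) was at 121.45 TPM in replicate 1 and 104.0 TPM in replicate 2, the collagen-binding Sparc at 109.64 and 86.16 TPM, and biglycan (Bgn) at 66.53 and 51.7 TPM. By the alignment-derived table each of these was above every collagen chain in both hearts. In the FASTQ-derived table Bgn, at 55.9 and 44.4 TPM, was below Col4a1, at 88.6 and 59.0 TPM. Sparc is counted in both lists. Of the other basement membrane genes, the laminin chain Lamb2 was at 134.49 and 122.5 TPM and perlecan (Hspg2) at 74.43 and 58.52 TPM. Both were above Col4a1 in the alignment-derived table, but in the FASTQ-derived table Hspg2, at 63.4 and 50.6 TPM, was below it. The median centred ratios were -0.13 for fibril partners, with 10 of 13 lower, and -0.07 for basement membrane partners, with 8 of 11 lower.

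Of 14 collagen receptors, 9 were expressed, with a median ratio of -0.07 and 7 of 9 lower. The integrin chain Itgb1 was at 115.22 TPM in replicate 1 and 91.5 TPM in replicate 2, Antxr2, which binds type IV collagen, at 28.33 and 24.14 TPM, and Adgrg1, a receptor of type III collagen, at 16.25 and 11.56 TPM. Of the collagen-binding α chains, Itga1 was at 12.48 and 10.47 TPM, while Itga2, Itga10 and Itga11 were below 1 TPM. Gp6 and Lair1, receptors of blood cells, were also below 1 TPM. Of 15 genes for degradation and its inhibition, 7 were expressed, close to the share of 48.7% over all protein-coding genes. The median ratio of these 7 was -0.19, with 5 of 7 lower. The inhibitors Timp3 and Timp2 were at 64.82 and 50.11 TPM and at 27.16 and 25.48 TPM, and the gelatinase Mmp2 at 20.25 and 15.26 TPM. Timp1, Mmp3, Mmp8, Mmp9, Mmp12, Mmp13 and Mmp16 were below 1 TPM, and Mmp1a had 0 counts. In none of these lists was a compared gene 2-fold or more apart between the animals.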

How the data were processed

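Per the labels' protocols, directional total RNA libraries were made from 300 ng of heart RNA depleted of ribosomal RNA, with ERCC spike-ins. Features were those of GENCODE M21 on mm10, according to description files the authors deposited. The aligner, quantifier and strand setting were not given in the sources used here. Reads were assigned to the C57BL/6J reference, so reads of CAST/EiJ alleles may be assigned less well.

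The alignment-derived gene and transcript tables hold, per the file headers, the authors' expected counts (estimated counts that need not be whole) and TPM, with posterior mean TPM and credibility bounds whose level is not given. The transcript table of the authors that was derived from FASTQ files holds estimated counts with TPM; its TPM were summed by gene here. Isoform percent, each transcript's share of its gene per the file headers, was recomputed here from the deposited TPM. Depth was 42223411 and 40553237 expected counts, while the FASTQ-derived tables sum to 43782858 and 41468698. Both libraries carry 1 donor identifier but different animal numbers in the labels, and were counted as 2 animals. Reads are not independent molecules, and limits cover counting error only.

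Ratios between chains used log2(TPM + 0.01) and ratios between animals log2(TPM + 0.1), which understate differences of low genes. Both the ratio calculation and the search for repeats were tested on simulated data. The members and lists were chosen with earlier results of these data known. Every member is accounted for, those with a mean of 1 TPM or more with both values. From each pathway list the 3 highest genes and all below 1 TPM in both animals are named, as is any gene 2-fold apart; other names were chosen after their values were seen. Ctage5, a gene of the export list, was not used here. No groups were compared, so no test was made. Alternatives changed the threshold, pseudocount, scaling, filter, unit, table and transcripts. Python 3.11.15, pandas 2.3.3, numpy 2.4.6 and matplotlib 3.10.9 were used.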

Additional observations from a re-analysis of the deposited data

How the results depend on the processing

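Of 43 alternatives of the counts, sums, shares and the median ratio, 29 left the value the same, 14 moved it and 0 reversed it. Sums and shares were the same within the SD between animals, and counts within 1.5 times. The median ratio was held to no spread and counted as moved at any change in its 2 decimals that kept its sign. With 2 animals, each single value lies within the SD of their mean, so leaving an animal out could not move a sum or share. A reversal was possible only for the median ratio. At 5 TPM in place of 1 TPM, 11 members were expressed in place of 17. The fibrillar share was 29.9% by full-length transcripts, an alternative chosen after seeing the data, in place of 28.3%. The type IV share was 42.1% by posterior mean TPM, 47.9% in the FASTQ-derived table, 46.6% by expected counts and 52.1% with types XV and XVIII included, in place of 43.5%. Members 2-fold apart between animals numbered 1 without centring (Col5a3, lower in replicate 2), 1 without the filter on low values (Col20a1, higher, at 11 and 24 counts) and 2 at 1.5-fold, in place of 0. The median ratio was -0.36 without centring, -0.22 by expected counts, -0.23 in the FASTQ-derived table, -0.12 without the filter and -0.26 by full-length transcripts, in place of -0.18. The cause of these shifts was not tested. With either animal left out, 18 members were expressed in each single animal, the summed level lay between 184 and 254 TPM, the fibrillar share between 27.4% and 29.2%, the type IV share between 42.9% and 44.0%, and members 2-fold apart between the tables numbered 0 and 0. Of 102 alternatives of 17 chain ratios, 29 moved the ratio by more than the SD between animals and 0 turned a ratio that had the same sign in both animals. Leaving out either animal could not move or turn a ratio for the reason given above, so all 29 came from other alternatives. Col6a3 over Col6a1 was 0.35 and Col6a6 over Col6a3 -2.31 by expected counts, Col12a1 over Col14a1 was -4.92 by full-length transcripts, and Col3a1 over Col1a1 was 1.12 in the FASTQ-derived table. No paired analysis was possible because the study has 1 group. The number of animals limits every SD, and depth limits the 13 members under 20 counts.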
